A study of Mus musculus with 4 samples.

Results

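Htra3, Plxdc2 and Spint1 are 3 of the 27998 genes of the count table, of which 16898 had at least 1 unique molecular identifier (UMI). They were selected on measured values, for a higher level after GM-CSF in P-I, the Ly6C+ classical monocytes among splenocytes with high CD115, so their values in P-I are a description of how they were chosen. CITE-seq reads the RNA of single cells together with DNA-tagged antibodies bound to the same cells. It was run on sorted CD11b+ splenocytes of C57BL/6 mice, 8 to 12 weeks old, in 1 library from mice in steady state and 1 library from mice in the GM-conditioned state, which had received 3 once-daily subcutaneous injections of 10 µg GM-CSF and were analysed 24 h after the last. The number of mice behind each library is not given in the sources used here. With 1 library per condition, a difference between libraries and an effect of GM-CSF cannot be told apart, no test between conditions was made, and all intervals cover counting error only.

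HTRA3 is a secreted serine protease of the HtrA family that cleaves matrix proteins and binds growth factors of the TGF-β family. PLXDC2 is a membrane protein with a plexin-like domain, and like its relative PLXDC1 it has been described as a receptor for the secreted factor PEDF. SPINT1, also called HAI-1, is a membrane-bound inhibitor with Kunitz domains that blocks serine proteases such as the hepatocyte growth factor activator and matriptase, mainly known from epithelia. GM-CSF binds a receptor of an alpha chain and the common beta chain and signals through JAK2 and STAT5.

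In GENCODE on GRCm38, Htra3 (ENSMUSG00000029096) lies on the minus strand of chromosome 5 from 35652023 to 35679782, Plxdc2 (ENSMUSG00000026748) on the plus strand of chromosome 2 from 16356304 to 16755839, and Spint1 (ENSMUSG00000027315) on the plus strand of chromosome 2 from 119237362 to 119249527. Their principal transcripts have 9, 14 and 10 exons. No other annotated gene overlapped any of the 3. The promoters of Htra3 and Spint1 are shown because all 3 genes were higher in the GM-CSF library and these are the 2 with a window. The sequences are the 250 bases before the RefSeq start on GRCm38.p6, read 5′ to 3′ on the strand of the gene, chr5:35679781-35680030 for Htra3 and chr2:119237110-119237359 for Spint1. Capitals mark matches to a STAT motif (TTCNNNGAA) or to the PU.1 core (GAGGAA) on either strand.
Htra3: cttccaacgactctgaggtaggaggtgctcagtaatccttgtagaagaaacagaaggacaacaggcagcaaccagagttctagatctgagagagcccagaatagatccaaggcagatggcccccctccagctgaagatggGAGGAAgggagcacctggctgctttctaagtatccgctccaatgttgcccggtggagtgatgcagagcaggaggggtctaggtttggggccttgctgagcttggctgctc
Spint1: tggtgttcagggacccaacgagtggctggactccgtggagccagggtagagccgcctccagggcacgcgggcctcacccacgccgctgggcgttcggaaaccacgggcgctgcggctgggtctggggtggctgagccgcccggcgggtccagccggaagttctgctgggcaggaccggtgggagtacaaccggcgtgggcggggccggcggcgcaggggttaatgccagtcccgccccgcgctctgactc
In Htra3, 1 PU.1 core, on the strand of the gene, lay 110 to 105 bases before the start. Neither window held the STAT letters, and the window of Spint1 held neither motif. Over all 32851 windows of the same length, 7.02% held the STAT motif and 23.3% the PU.1 core. The window of Spint1 was rich in G and C (72.8%, against 54.8% in Htra3 and a median of 52.4% over all windows).

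The steady-state library held 4827 cells and 22358903 UMIs, and the GM-CSF library 6804 cells and 35007567 UMIs. The authors' bundle of monocytes, macrophages and dendritic cells (DCs), left after T cells, B cells, granulocytes, neutrophils and conventional DCs were set aside, held 2135 and 3940 of these cells at median depths of 6894 and 6654 UMIs. The libraries shared 8 cell barcodes, 1 of them in a P-I cell, and leaving out those cells moved the ratio of Plxdc2 in P-I from 101 to 100.4 and that of Spint1 from 87.5 to 86.9 (0.5 counts added to each sum). Levels are given as CPM, the summed UMIs of a gene per 1e6 UMIs of the same cells, with exact 95% Poisson intervals. As 3′ counts, they are compared between groups of cells and not between genes.

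In P-I, the 3 genes went from none or a single UMI to detection in 35.8% (Htra3), 55.6% (Plxdc2) and 54.0% (Spint1) of cells. The 139 steady-state P-I cells held 0 UMIs of Htra3, 1 of Plxdc2 and 1 of Spint1 among 1092673. The 187 P-I cells of the GM-CSF library held 106, 193 and 167 among 1394605, at nearly the same median depth (7232 UMIs per cell, against 7264). Htra3 thus stood at 76.0 CPM (62.2 to 91.9) after GM-CSF, 27.7-fold higher if the 0 in steady state stood for 3 UMIs. The exact interval of its ratio had a lower limit of 22.1. Plxdc2 stood at 138 CPM (120 to 159) against 0.915 (0.0232 to 5.10), a ratio of 151 (26.8 to 6003). Spint1 stood at 120 CPM (102 to 139) against 0.915 (0.0232 to 5.10), a ratio of 131 (23.2 to 5199).

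The UMIs were spread over many cells. No P-I cell had more than 4 UMIs of Htra3, 5 of Plxdc2 and 6 of Spint1 after GM-CSF. At least 1 of the 3 was found in 82.9% of these cells and all 3 in 24 cells (12.8%). In steady state, 2 of 139 P-I cells (1.44%) had a UMI of any of them. Neutrophils and granulocytes of the same GM-CSF library served as a comparison for free RNA, of which no estimate was made. Of the 893 neutrophils, at a median of 4404 UMIs, 0 had a UMI of Htra3, which allows a share of up to 0.336%, while 0.336% had one of Plxdc2 and 0.448% one of Spint1. Of the 1791 granulocytes, at a median of 1229 UMIs, 0.279% had a UMI of Htra3, 0.0558% of Plxdc2 and 1.73% of Spint1.

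To place the 3 genes among all genes, the CPM ratio with 0.5 counts added to each sum was ranked over the 5774 genes with at least 50 UMIs in P-I of both libraries together. Of these, 288 (4.99%) were at least 2-fold higher and 411 (7.12%) at most 0.5-fold, and since all 3 genes were selected on this contrast their place among the higher ones is not evidence. With scaling by the median of ratios, 386 were higher and 277 lower. Htra3 ranked 4, Plxdc2 8 and Spint1 10. The genes next to them were genes of mitosis, namely Nusap1 and Kif11 beside Htra3, Cenpe and Plk1 beside Plxdc2, and Plk1 and Aspm beside Spint1. Kif11 had the same counts as Htra3, 106 against 0. Only 9 genes had at most 1 UMI in steady-state P-I and at least as many as Htra3 after GM-CSF. Besides the 3 these were Ube2c, Ccnb2, Cdca3, Nusap1, Cenpf and Kif11, all known from cell division.

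**Figure D1:**
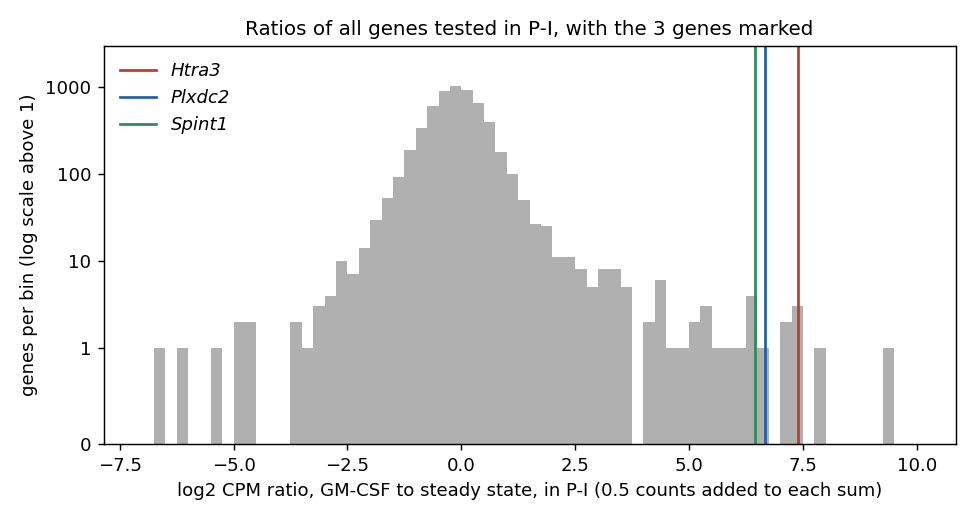
Histogram of the log2 CPM ratio of the GM-CSF to the steady-state library in P-I over 5774 genes (x axis, 0.5 counts added to each sum), with the number of genes per bin on a log axis (y axis). The coloured lines mark Htra3, Plxdc2 and Spint1, which lie in the sparse right tail, away from the bulk of genes around 0.

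The order of genes differed when only P-I cells in G1 were compared, a view chosen after the data were seen. Among 111 GM-CSF and 99 steady-state cells in G1, 4430 genes reached 50 UMIs and 166 were at least 2-fold higher. None of the mitotic genes named above was among the first 20. The paper scored phase from S and G2/M marker genes, so low counts of mitotic genes in G1 follow in part from the label. These cells are also part of those on which the 3 genes were selected, so the ranks of the 3 are not evidence. Spint1 (118 UMIs against 0), Htra3 (66 against 0) and Plxdc2 (132 against 1) took ranks 1, 2 and 4. The genes between and after them were Ngp (173 against 1) and Camp (84 against 2), which encode neutrophil granule proteins. The summed neutrophil markers stood at 3128 CPM in steady-state P-I and 3646 after GM-CSF, and their part in the result was not tested. The 3 genes themselves were at or below 13.3 CPM in granulocytes and neutrophils of both libraries.

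P-I cells of the 2 libraries also differed in the tags and markers that label them. Their median Ly6C tag count was 899 in steady state and 105 after GM-CSF, that of CD115 was 32 and 111, and that of MHC II was 11 and 171. The 5 classical monocyte markers together stood at 3342 CPM in steady state and 1520 after GM-CSF, the 5 monocyte-derived DC markers at 733 and 3114 CPM, the 5 non-classical monocyte markers at 1161 and 348 CPM and the 3 erythroid markers at 114 and 1.43 CPM, and their part in the levels of the 3 genes was not tested. The defining markers of T cells (3 of 3) were at 0 in both libraries, as were 3 of 4 B cell markers. Of 6 stromal markers, 5 in steady state and 4 after GM-CSF were at 0. P-I was also limited to cells with at least 84 CD115 and 195 Ly6C tag counts (common tag counts). For each tag this is the higher of the lowest P-I counts of the libraries. No upper limit was set, so the cells left could still differ in both tags. The 33 GM-CSF cells left held 20 UMIs of Htra3, 32 of Plxdc2 and 19 of Spint1. The 10 steady-state cells left held none of them. With 3 UMIs allowed there the levels were 1.81-fold, 2.90-fold and 1.72-fold higher after GM-CSF, against 27.7-fold for Htra3 in all P-I cells. These values leave out counting error in the GM-CSF counts.

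The P-I cells were also split by cluster. These are parts of the cells on which the 3 genes were selected, so their counts are a description and no further evidence. In cluster 2, which held the most P-I cells, 44 steady-state cells had no UMI of any of them. The 53 GM-CSF cells had 28 UMIs of Htra3 (73.6 CPM), 69 of Plxdc2 (181 CPM) and 59 of Spint1 (155 CPM). In cluster 5, 30 steady-state cells had none, and 15 GM-CSF cells had 8, 26 and 14 UMIs. Cluster 6 gave weaker counts, none in 26 steady-state cells and 2, 2 and 5 UMIs in 8 GM-CSF cells.

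The other CD115hi subsets show whether the 3 genes are a mark of P-I. In the GM-CSF library they were not higher in P-I than in P-III (Ly6C-MHC II+CD301b-) or P-IV (Ly6C-MHC II+CD301b+, the GM-CSF-induced DCs). Htra3 stood at 76.0 CPM in P-I, 123 (99.1 to 151) in P-III and 76.9 (65.9 to 89.3) in P-IV. Plxdc2 stood at 138, 141 (115 to 170) and 122 (108 to 137) CPM in the same order. Spint1 stood at 120, 155 (128 to 187) and 103 (89.9 to 117) CPM. The subsets of steady state held 12 P-III and 7 P-IV cells and no UMI of any of the 3, which with 3 UMIs allowed leaves up to 36.9 and 55.3 CPM.

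**Figure D2:**
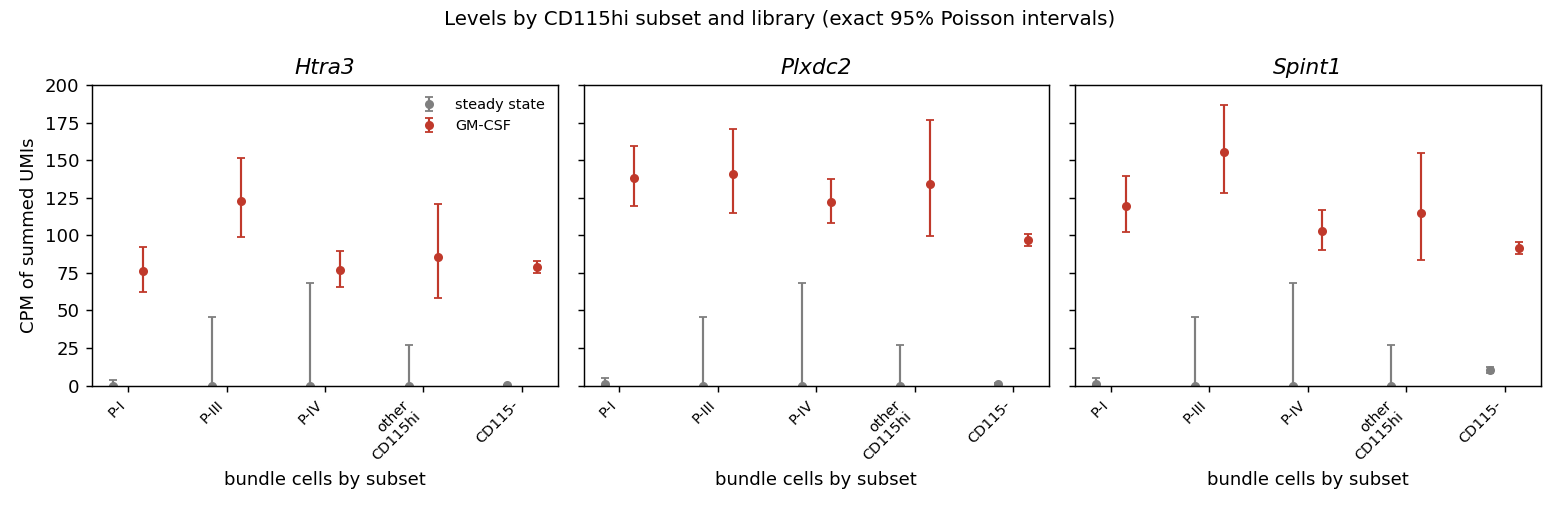
CPM of summed UMIs (y axis) of Htra3, Plxdc2 and Spint1 in bundle cells by CD115hi subset (x axis) in the steady-state (grey) and GM-CSF library (red), with exact 95% Poisson intervals for counting error. After GM-CSF all 3 genes are present in every group drawn, and among these Htra3 and Spint1 have their highest point in P-III (P-II, with 8 cells in each library, is not drawn).

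The order of the levels was clearest for Htra3 and Spint1. Htra3 was 1.62-fold (1.21 to 2.16) higher in P-III than in P-I, and its level in P-IV was 0.625 (0.482 to 0.815) of that in P-III. Spint1 was 1.30-fold (1.01 to 1.66) higher in P-III than in P-I and 0.661 (0.526 to 0.834) of it in P-IV. For Plxdc2, neither neighbour differed beyond counting error, with 1.02 (0.793 to 1.30) for P-III to P-I and 0.867 (0.689 to 1.10) for P-IV to P-III. P-I and P-IV did not differ beyond counting error for any of the 3, the ratios of P-IV to P-I being 1.01 (0.790 to 1.30), 0.881 (0.730 to 1.06) and 0.858 (0.700 to 1.05). None of the 3 reached the 2-fold rule among subsets, which 1.11% of 5233 genes did for P-III over P-I, and 1.91% upward and 1.01% downward of 6216 genes for P-IV over P-III. P-II, the non-classical monocytes of the gate, had 8 cells in each library, with 7, 5 and 3 UMIs after GM-CSF and none in steady state. After GM-CSF this gave 252 (101 to 519), 180 (58.4 to 420) and 108 (22.3 to 315) CPM. For Htra3 and Plxdc2 these were the highest points of any CD115hi subset, with wide intervals.

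Cells of the bundle outside P-I were not used to select the genes, although they come from the same 2 libraries. There Htra3 had 2 UMIs in 1996 steady-state cells and 2060 in 3753 GM-CSF cells, 0.144 (0.0175 to 0.521) against 80.2 CPM (76.7 to 83.7) and a ratio of 556 (154 to 4591). Plxdc2 went from 17 to 2592 UMIs, 1.23 against 101 CPM and a ratio of 82.2 (51.3 to 141). Spint1 went from 138 to 2435 UMIs, 9.96 against 94.8 CPM and a ratio of 9.52 (8.02 to 11.4). Of 10799 genes, 8.57% were at least 2-fold higher and 9.51% at most 0.5-fold, and all 3 genes were among the higher ones. With 0.5 counts added, Htra3 had the highest ratio of all, ahead of Mcpt8, a basophil protease, while Plxdc2 ranked 16 and Spint1 87.

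Cells outside the CD115hi gate held most of the UMIs. The 3256 CD115- bundle cells of the GM-CSF library had 1757 UMIs of Htra3, 2159 of Plxdc2 and 2043 of Spint1. Between CD115hi and CD115- cells after GM-CSF, Htra3 did not differ beyond counting error, at 85.5 and 78.8 CPM (ratio 1.09, 0.972 to 1.21). Plxdc2 and Spint1 were moderately higher in CD115hi cells, by 1.35-fold (1.23 to 1.48) and 1.28-fold (1.16 to 1.402).

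By deposited cell type, the 3 genes were found across the bundle, with fewer UMIs beyond it. In the MoMacDC_c1 type, which held 1277 steady-state and 1342 GM-CSF cells, Htra3 went from 1 to 836 UMIs (96.5 CPM), Plxdc2 from 2 to 1327 (153 CPM) and Spint1 from 14 to 1101 (127 CPM). MoMacDC_c2 had Htra3 at 0 against 98.4 CPM, Plxdc2 at 7.52 against 110 CPM and Spint1 at 21.3 against 108 CPM. MoMacDC_c4 held 0, 0 and 1 UMIs in its 43 steady-state cells. After GM-CSF it stood at 50.5, 70.2 and 51.6 CPM, below MoMacDC_c1 and MoMacDC_c2 for each gene. These cells had the deepest median of the 4 types (9709 UMIs per cell).

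The MoMacDC_c5 type set Htra3 apart from the other two. Its 139 GM-CSF cells had 79 UMIs of Htra3, 202 CPM (160 to 252), above the intervals of the other bundle types. Plxdc2 and Spint1 had 22 and 21 UMIs there, 56.3 CPM (35.3 to 85.2) and 53.7 CPM (33.3 to 82.1), below their levels in MoMacDC_c1 and MoMacDC_c2. In steady state, 486 cells of this type held 1, 4 and 1 UMIs. Cluster 4 of the bundle, which also had 139 GM-CSF cells at the same median depth of 2493 UMIs, gave a similar split. Both labels sort the same bundle cells and their overlap was not counted, so cluster 4 is no separate evidence. There Htra3 stood at 185 CPM (145 to 233), Plxdc2 at 58.3 (36.9 to 87.5) and Spint1 at 45.6 (27.0 to 72.1). The 5 non-classical monocyte markers (Nr4a1, Ace, Treml4, Cd300e and Spn) together stood at 1959 CPM in these cells, against 206 CPM in all GM-CSF bundle cells.

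The type named progenitor DC separated Spint1 from the other two in the opposite way. In steady state Spint1 had 89 UMIs in its 152 cells, 72.0 CPM (57.8 to 88.6), while Htra3 and Plxdc2 had 0. After GM-CSF its 393 cells had 181 UMIs of Spint1, 60.7 CPM (52.2 to 70.2), so the ratio was 0.843 (0.651 to 1.10) and no difference was detectable at this depth. Htra3 reached 44 UMIs (14.8 CPM) and Plxdc2 9 UMIs (3.02 CPM), far below their levels in the MoMacDC types. The list of conventional DC and DC progenitor markers held 6 genes (Flt3, Zbtb46, Kit, Xcr1, Clec9a and Clec4a4). It summed to 443 CPM in steady state and 291 CPM after GM-CSF in these cells, with Xcr1 and Clec9a at 0 in turn. The sum does not tell conventional DCs and progenitors apart.

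**Figure D3:**
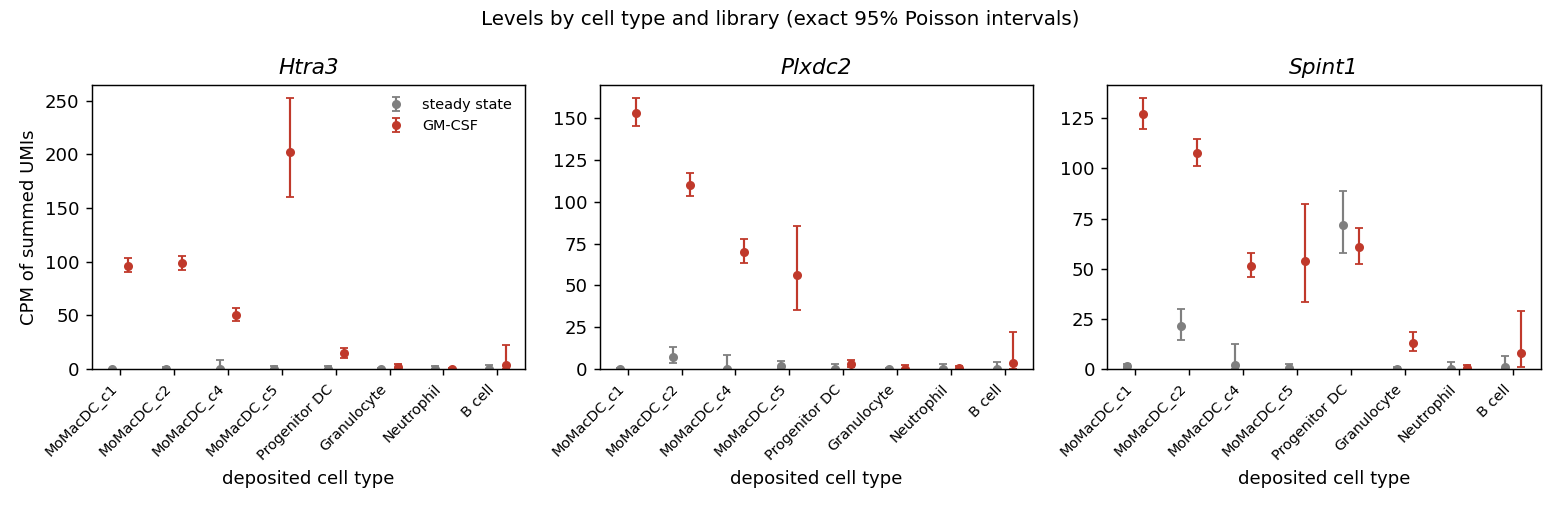
CPM of summed UMIs (y axis, a separate scale for each gene) by deposited cell type (x axis) in the steady-state (grey) and GM-CSF library (red), with exact 95% Poisson intervals. Htra3 is highest in MoMacDC_c5 after GM-CSF, and progenitor DC is the one type in which Spint1 lies above 50 CPM in both libraries.

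Outside the bundle the highest level after GM-CSF was that of Spint1 in 20 activated DCs, 7 UMIs in 4 cells or 62.7 CPM (25.2 to 129), where Plxdc2 had 3 UMIs and Htra3 1. The 8 activated DCs of steady state held 1 UMI of Spint1 and none of the others. Granulocytes of steady state, 1929 cells, and neutrophils, 146 cells, held no UMI of the 3 genes. After GM-CSF, 1791 granulocytes held 5 UMIs of Htra3, 1 of Plxdc2 and 32 of Spint1 (13.3 CPM, 9.07 to 18.7). The 893 neutrophils held 0, 4 and 4. Spint1 was thus 16.4-fold (5.80 to 63.7) higher in granulocytes than in neutrophils of this library, although granulocytes were the shallower cells (medians of 1229 and 4404 UMIs). B cells had at most 2 UMIs of any of the 3 genes in either library, and T cells had 5 of Plxdc2 in steady state and 2 of Spint1 after GM-CSF.

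Across the clusters of the bundle, Htra3 and Plxdc2 had different highest clusters and the same lowest ones. After GM-CSF, Plxdc2 was highest in cluster 1 (189 CPM, 175 to 204) and cluster 2 (175 CPM, 157 to 195), whose intervals overlap. Htra3 stood at 79.6 CPM (67.7 to 93.0) in cluster 2, below its level in cluster 10 (132 CPM, 100.5 to 170). Plxdc2 was lowest, among clusters of at least 20 cells, in clusters 9 (7.40 CPM, 3.69 to 13.2) and 12 (5.28 CPM, 2.28 to 10.4). Htra3 was also lowest there, at 21.5 (14.7 to 30.4) and 11.2 (6.53 to 18.0) CPM. Of their 388 GM-CSF cells, 225 of cluster 9 and 151 of cluster 12 carried the progenitor DC label. Spint1 kept 90.8 CPM (76.1 to 107) in cluster 9 and 38.3 CPM (29.0 to 49.5) in cluster 12. Relative to the other GM-CSF clusters, clusters 9 and 12 together had 0.186 (0.137 to 0.246) of the level of Htra3, 0.0551 (0.0331 to 0.0862) of that of Plxdc2 and 0.642 (0.552 to 0.744) of that of Spint1.

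**Figure D4:**
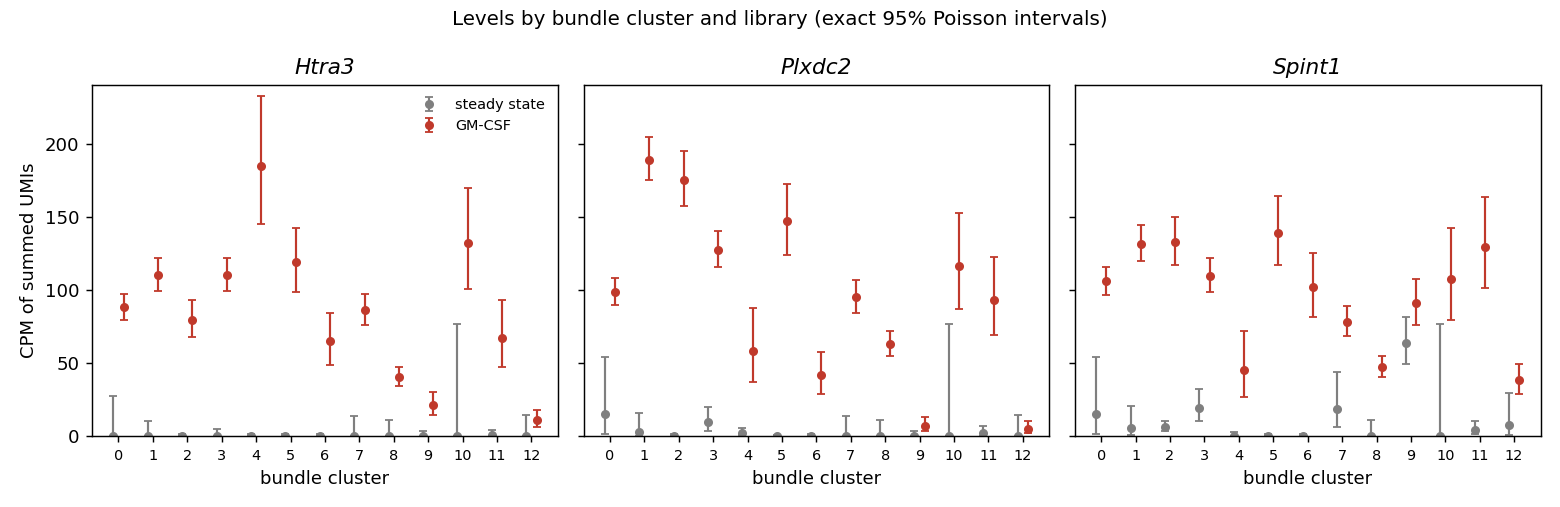
CPM of summed UMIs (y axis) in bundle clusters 0 to 12 (x axis) in the steady-state (grey) and GM-CSF library (red), with exact 95% Poisson intervals. Htra3 peaks in cluster 4, Plxdc2 in clusters 1 and 2, and Spint1 is the one gene of the 3 with a level clearly above 0 in cluster 9 of both libraries.

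In steady state the few UMIs were unevenly placed. Of the 139 UMIs of Spint1 in the bundle, 64 were in cluster 9 (63.9 CPM, 49.2 to 81.6) and 28 in cluster 14 (81.1 CPM, 53.9 to 117). Of 18 UMIs of Plxdc2, 7 were in cluster 3 (9.63 CPM, 3.87 to 19.8) and 5 in cluster 4. Leaving out clusters 9, 12 and 14 raised the ratio of Spint1 between the libraries outside P-I from 9.49 to 27.3, and left that of Htra3 at 436 and that of Plxdc2 at 79.7 (0.5 counts added).

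The surface tags separated the steady-state cells with Spint1 from the rest. The 90 bundle cells with a UMI of it, 56 of them labelled progenitor DC, had medians of 358.5 CD11c and 1039.5 MHC II tag counts. The 2045 cells without had 7 and 14. The median Ly6C count was 41.5 in cells with it and 542 in those without. The part of cell type in this contrast was not tested. After GM-CSF this contrast was gone, with medians of 161 and 166 for CD11c and 290 and 289 for MHC II in cells with and without Spint1. Within P-I of the GM-CSF library, cells with and without Htra3 had tag medians of 112 and 110.5 for CD115, 116 and 101 for Ly6C, 90 and 115 for CD11c and 160 and 174 for MHC II. The cells with it were deeper (7851 against 6891.5 UMIs).

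Split into 4 groups of 985 cells by a tag count, the GM-CSF bundle cells differed most by CD115 and CD11c. From the lowest to the highest group of CD115, Htra3 went from 53.9 to 85.7 CPM, Plxdc2 from 65.0 to 122 and Spint1 from 78.0 to 107. The group with the highest CD11c counts had the lowest level of each, at 44.6, 64.5 and 73.7 CPM, against 92.6, 117 and 103 CPM in the group with the lowest. By CD301b, the tag that defines P-IV, the 4 groups lay, for Htra3, between 76.5 and 86.8 CPM. Plxdc2 stood at 85.3 CPM (77.9 to 93.3) in the lowest group of CD301b and 113 (105 to 121) in the next. Spint1 stood at 105 CPM (96.8 to 114) in the lowest group and 89.2 (82.6 to 96.3) in the highest.

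Detection of one of the genes in a cell went with detection of another only in part. In P-I after GM-CSF, 42.3% of 104 cells with Plxdc2 and 27.7% of 83 cells without it had Htra3. Spint1 was found in 53.7% of 67 cells with Htra3 and 54.2% of 120 cells without it. Cells with 1 gene were deeper, so the counts were also thinned to 1000 UMIs per cell, which left out 4 GM-CSF and 1 steady-state P-I cell. Then 2 of 22 cells with Plxdc2 (9.09%) and 7.45% of 161 without it had Htra3. Over all GM-CSF bundle cells thinned alike, 10.99% of 355 cells with Plxdc2 and 8.40% of 3524 without it had Htra3.

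By cell cycle phase, the 3 genes were lowest in G2M cells of the GM-CSF bundle. Htra3 stood at 93.3 CPM (88.7 to 98.2) in 2523 G1 cells, 80.8 (72.6 to 89.6) in 660 S cells and 48.0 (42.9 to 53.5) in 757 G2M cells. Plxdc2 stood at 125 (119 to 131), 100.0 (90.9 to 110) and 52.7 (47.4 to 58.5) CPM in the same phases. Spint1 stood at 115 (110 to 120), 93.5 (84.7 to 103) and 53.9 (48.5 to 59.7) CPM. In P-I the level in G2M relative to G1 was 0.685 (0.403 to 1.13) for Htra3, which is within counting error, 0.436 (0.279 to 0.660) for Plxdc2 and 0.471 (0.298 to 0.720) for Spint1.

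Within single clusters, this difference lay beyond counting error in only some of those compared. Taking S and G2M together, the ratio to G1 in the whole GM-CSF bundle was 0.653 (0.595 to 0.715) for Htra3, 0.572 (0.526 to 0.621) for Plxdc2 and 0.606 (0.556 to 0.659) for Spint1. In 9 clusters with at least 20 cells on both sides, the interval held 1 in 7 clusters for Htra3, 8 for Plxdc2 and 7 for Spint1. In cluster 0 Htra3 was higher in S and G2M cells, 1.396-fold (1.07 to 1.81). In cluster 7 all 3 were lower in S and G2M, at 0.659 (0.481 to 0.917), 0.483 (0.367 to 0.642) and 0.541 (0.396 to 0.750) of G1. In cluster 9 Spint1 was lower, at 0.623 (0.418 to 0.912), while the intervals of Htra3 and Plxdc2 held 1. Clusters 7, 8, 9 and 12 held 64.4% of the 1417 S and G2M cells, and all cells of clusters 8 and 12 were in S or G2M, as were 86.5% of those of cluster 7. Clusters 8 and 12 thus allowed no comparison with G1. Cluster 8 had the 3 genes at 40.4, 63.1 and 47.3 CPM.

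**Figure D5:**
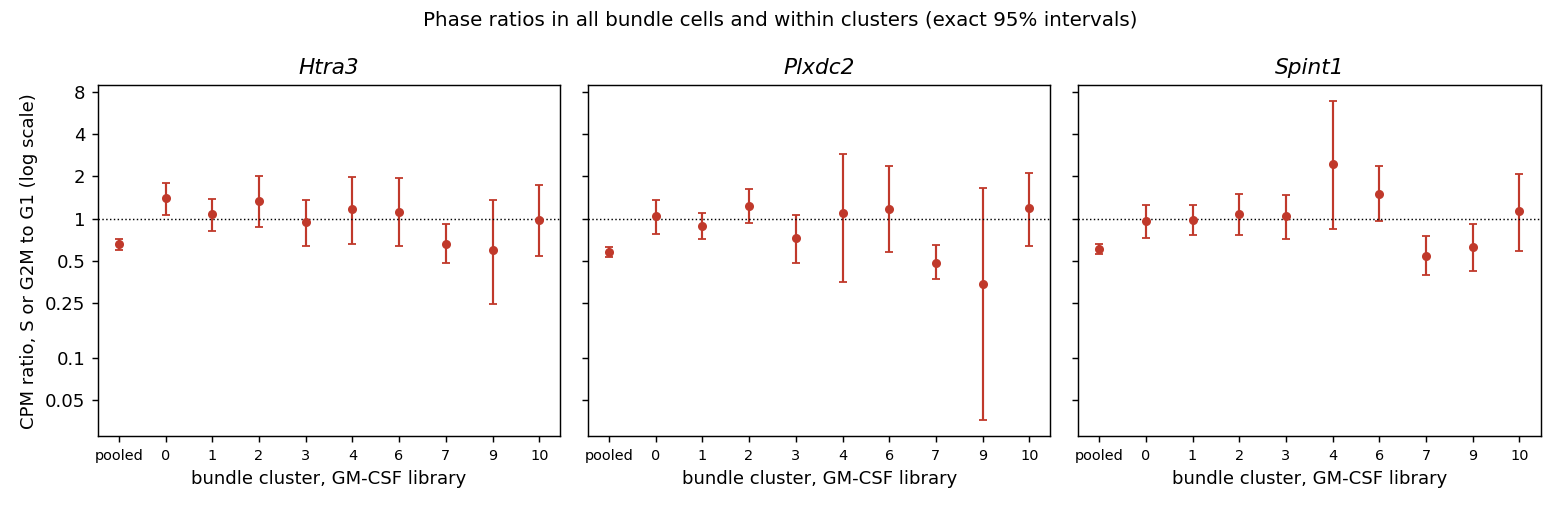
CPM ratio of S or G2M to G1 cells (y axis, log scale) in all GM-CSF bundle cells (pooled) and within 9 clusters (x axis), with exact 95% intervals for counting error, and a dotted line at 1. The pooled points lie near 0.6, while the intervals of most clusters hold 1. Those of cluster 7 and that of Spint1 in cluster 9 lie below it, and that of Htra3 in cluster 0 above it.

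Genes whose level followed that of the 3 over clusters were ranked by Pearson correlation of log2(CPM + 10) over 28 cluster and library groups of at least 20 cells, among 9092 genes with at least 200 UMIs in the bundle. Each group of a library shares that library, so the values are descriptions. The gene most like Htra3 was Slc52a3, a riboflavin transporter (r = 0.971), followed by Plxdc2 (0.954), 2510009E07Rik (0.916), 1700061G19Rik (0.897) and Actg1 (0.873). For Plxdc2 these were Htra3 (0.954), 1700061G19Rik (0.941), Slc52a3 (0.937), 2510009E07Rik (0.911) and Prkra (0.883). Spint1 had other genes at its side, Shtn1 (0.936), Cd1d1 (0.911), a lipid-presenting molecule, Clmp (0.868), Eps8 (0.863) and Gdi2 (0.844). Htra3 stood only 20 in its list and Plxdc2 23. Over the 14 GM-CSF clusters alone, r was 0.809 for Htra3 with Plxdc2, 0.633 for Plxdc2 with Spint1 and 0.422 for Htra3 with Spint1.

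The relatives and partners of the 3 genes were taken from lists chosen with earlier results known. Of the 4 HtrA genes, 2 reached 50 UMIs in P-I, Htra3 and the gene of the mitochondrial protease Htra2. Htra2 stood at 47.3 against 70.5 CPM (ratio 0.672, 0.476 to 0.945), within the 2-fold limits. Its ratio was 0.747 with scaling by the median of ratios. Of 14 matrix and TGF-β genes, 6 were tested in P-I, where 0 were at least 2-fold higher and 2 at most 0.5-fold (4.99% and 7.12% of all genes). The median ratio was 0.682, against 0.933 over all genes. The lower genes were the receptor gene Tgfbr1 (33.0 against 117 CPM, ratio 0.282, 0.196 to 0.397) and Fn1, which encodes fibronectin (561 against 1143 CPM, ratio 0.491, 0.449 to 0.538). With scaling by the median of ratios, which divides the ratios in P-I by 0.900, Fn1 stood at 0.546 and was no longer among the lower ones. Tgfb1 itself was at 278 against 408 CPM. In the bundle outside P-I, 9 of these genes were tested, with 1 higher (Ltbp3, 1.71 against 0.433 CPM) and 3 lower (Tgfbr1, Smad3 and Fn1), where 8.57% and 9.51% of all genes were higher and lower.

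For Plxdc2, no other gene of its list of 6 reached 50 UMIs in P-I. Outside P-I its relative Plxdc1 was lower after GM-CSF, 4.13 against 12.99 CPM (ratio 0.318, 0.247 to 0.406), and Nid2, a basement membrane gene, was at 1.67 against 2.02 CPM. For Spint1, no other gene of its list of 14 Kunitz inhibitors and protease genes reached 50 UMIs in P-I. Outside P-I, 7 were tested, with Spint1 the 1 higher and 2 lower (8.57% and 9.51% of all genes). The sister inhibitor Spint2 stood at 5.60 against 8.59 CPM, the matriptase gene St14 at 2.69 against 3.82 and the hepsin gene Hpn at 1.95 against 1.23, all within the 2-fold limits. The growth factor gene Hgf (2.72 against 17.7 CPM, ratio 0.154, 0.116 to 0.202) and its receptor gene Met (6.03 against 14.9 CPM, ratio 0.404, 0.326 to 0.4998) were lower.

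Of the 12 genes of the GM-CSF receptor and of STAT5 signalling, 8 were tested in P-I, where 1 was higher and 2 were lower (4.99% and 7.12% of all genes), around a median ratio of 0.831 against 0.933 over all genes. Csf2rb2, a second beta chain gene of the mouse, stood at 42.3 against 20.1 CPM (ratio 2.10, 1.27 to 3.60). The chains that the paper names for the GM-CSF receptor were within the 2-fold limits, Csf2ra at 0.535 (0.445 to 0.642) and Csf2rb at 1.19 (1.001 to 1.42). The kinase gene Pim1 (205 against 424 CPM) and the signalling inhibitor gene Socs3 (36.6 against 74.1 CPM) were the lower ones, but at 0.538 and 0.550 with the median-of-ratios scaling they were not. Counts of Csf2rb2 may be shared with the near-identical Csf2rb (234 against 196 CPM), so its value is uncertain. Outside P-I, all 12 were tested, with 2 higher and 2 lower (8.57% and 9.51% of all genes). Cish (5.29 against 0.721 CPM, ratio 7.34, 3.87 to 15.6) and Socs2 (2.88 against 0.938 CPM, ratio 3.07, 1.69 to 6.04) were higher. Socs3 (31.3 against 119 CPM, ratio 0.264, 0.242 to 0.287) and Pim1 (282 against 669 CPM, ratio 0.422, 0.409 to 0.435) were lower. The list thus held genes that moved in both directions, and the rest of it lay within the 2-fold limits.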

How the data were processed

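RNA and antibody-tag libraries of CD11b+ splenocytes were analysed for 1 steady-state and 1 GM-CSF sample. The authors aligned reads with Cell Ranger 3.0.2 on mm10, counted tags with CITE-seq-Count, and kept cells of at least 200 genes and at most 15% mitochondrial UMIs in Seurat 3.6.0. They also left out cells above an upper limit of genes per cell. The deposited matrices hold raw counts (UMIs per gene, counts per tag). Clusters, cell types, CD115hi subsets and phases are deposited labels. Counts were summed per group and divided by the total (CPM). Poisson, Clopper-Pearson and ratio intervals are exact at 95%, and a count of 0 allows 3. Without replicates no test between conditions was made. Genes with at least 50 UMIs over both sums entered a 2-fold rule, checked on simulated data. Doublets were called with Scrublet in scanpy 1.11.5 (141 and 186 cells) and kept, with values without them as an alternative. Named were the 3 genes, their pathway lists, neighbours in rank, the 5 genes most alike and marker genes. The 3 genes and all lists were chosen with earlier results of these data known. Python 3.11.15, numpy 2.4.6 and scipy 1.17.1 were used.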

Additional observations from a re-analysis of the deposited data

Results flagged for a closer look

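Spint1 in progenitor DC had a CPM ratio of the GM-CSF to the steady-state library of 0.843, below 1, while its ratio was above 1 in 4 other bundle cell types. This set it apart because the direction differed between cell types, but the interval of the ratio (0.651 to 1.10) holds 1 and the difference between cell types was not tested. Within progenitor DC, Spint1 stood at 86.8 CPM in steady state and 86.3 CPM after GM-CSF in cluster 9, and at 4.39 and 37.2 CPM in cluster 12. Cluster 12 held 19 of 152 steady-state and 151 of 393 GM-CSF cells of this type.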

How the results depend on the processing

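No paired analysis was possible because each condition had 1 library, and for the same reason no library could be left out. Ratios here have 0.5 counts added to each sum. Of 146 recomputed values, 117 stayed within counting error or, for counts of genes, within 1.5 times, and no called value changed direction. In P-I, the value of 27.7 for Htra3, with 3 UMIs allowed in steady state, was 3.52 after thinning to 1000 UMIs per cell. It was 22.1 in G1 cells, 22.2 without clusters 11, 14 and 15, and 1.81 in cells with common tag counts. Each of these settings had fewer cells or UMIs. With common tag counts Plxdc2 went from 101 to 17.7 and Spint1 from 87.5 to 10.6, values set by the added counts, as steady state had 0 UMIs there. Over the other settings the ratio of Plxdc2 in P-I ranged up to 408 and that of Spint1 up to 240. Outside P-I, thinning gave 399 for Plxdc2 (main 79.9), again set by the added counts, as 0 thinned steady-state cells had a UMI of it. Thinning gave 17.6 for Spint1 (main 9.49), averaging over cells gave it 12.4, and leaving out clusters 9, 12 and 14 gave it 27.3. Thinning also moved P-III to P-I from 1.02 to 1.35 for Plxdc2 and from 1.30 to 1.83 for Spint1, and P-IV to P-III from 0.864 to 0.584 for Plxdc2. For S or G2M to G1 after GM-CSF, thinning gave 0.830 for Htra3 and 0.683 for Spint1, and averaging over cells 0.740, 0.650 and 0.686 for the 3 genes. Plxdc2 in steady state went from 0.275 to 3.18 on thinning, with 18 UMIs in all before it and 0 cells with a UMI after it. The 3.18 was thus set by the added counts. The cause of the other moves was not tested. The 288 genes at least 2-fold higher in P-I became 556 with a minimum of 20 UMIs, 1928 with none, 125 at a fold of 3, 166 in G1 cells and 51 after thinning, where 955 genes and none of the 3 reached 50 UMIs. Of the 5 genes most like each, 2 were shared with the grouping by cell type, and with Spearman's rho 2 for Plxdc2 and 3 for Spint1. Common tag counts, shared barcodes, clusters 9, 12 and 14 left out and the count of genes in G1 were chosen after the data were seen.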
